A study of Rattus norvegicus with 18 samples.

Results

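A set of 10 genes of the neuronal cytoskeleton was examined in primary neuroglial cultures of the rat cortex, namely Nefl, Nefm, Nefh, Ina, Tubb3, Map2, Mapt, Stmn2, Gap43 and Dcx. They were taken by name from the 31463 rows of the deposited tables, and all 10 were found and were among the 14398 genes that passed the filter on low counts. Their expression was compared as CPM, the count scaled to a common library size after correction with TMM factors, which adjust each library for its composition. The cultures came from newborn Wistar rats and were treated on day 10 in vitro. The 18 libraries form 6 groups of 3. Control cultures received no glutamate, and the Glutamate group received 100 µM glutamate. In the Memantine group, 100 µM memantine was given, which blocks NMDA receptors. Glutamate is absent from the label of this group, but the methods and the design text say that both were applied together. The Glutamate_vesicles, Glutamate_secret and Glutamate_BPC groups were given secreted material of glial progenitor cells the day before glutamate. The first of these preparations was extracellular vesicles. The labels do not say which of the other 2 groups received a protein fraction limited by size and which the total secretome, although the column headers tie Glutamate_secret to the limited range. Total RNA was taken 4 h after the glutamate model. The progenitors had been derived from induced pluripotent stem cells of 1 donor line, and cytosine arabinoside had been used in all cultures to limit the growth of glia. The methods state that experiments were repeated on unrelated cultures but do not tie the 3 libraries of a group to them, so that p values measure the spread between these libraries, which may be technical.

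Axons owe their calibre and their transport tracks to this set of proteins. Neurofilaments are intermediate filaments built from the light, medium and heavy subunits (Nefl, Nefm, Nefh) and, in central neurons, internexin (Ina). Microtubules of neurons contain the beta-III tubulin isotype (Tubb3), with MAP2 bound along dendrites and tau (Mapt) along axons. Stathmin-2 (Stmn2) binds free tubulin in growing axons, GAP-43 (Gap43) is a membrane protein of growth cones, and doublecortin (Dcx) stabilises microtubules in young and migrating neurons. Loss of MAP2 staining and breakdown of neurofilaments are textbook signs of injured neurons, and the present data concern RNA only.

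The regions around the annotated gene starts of Tubb3, Ina, Map2 and Dcx are shown because these are the 4 of the 10 genes with a sequence in the table used here. Tubb3 varied mainly with treatment, Ina, Map2 and Dcx more with the replicate number, and Map2 and Dcx were each other's closest match. The sequences are those of RefSeq (assembly GRCr8), from 250 bases before to 50 bases after the start, 5′ to 3′ on the strand of the gene. The annotated start need not be the one used in these cells. Capitals mark matches on either strand to the motifs searched, which were the TATA box TATAAA, the CCAAT box, the GC box GGGCGG, the E-boxes CAGCTG and, as a further form, CAGATG, the AP-1 motif TGANTCA and the CRE motif TGACGTCA.
Tubb3, chr19:68365437-68365736, plus strand: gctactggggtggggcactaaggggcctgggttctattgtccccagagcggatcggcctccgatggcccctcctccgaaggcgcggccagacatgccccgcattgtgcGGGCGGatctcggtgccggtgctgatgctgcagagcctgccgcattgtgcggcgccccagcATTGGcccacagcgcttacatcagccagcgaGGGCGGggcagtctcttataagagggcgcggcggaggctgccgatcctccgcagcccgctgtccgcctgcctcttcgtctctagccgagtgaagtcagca
Ina, chr1:255837879-255838178, plus strand: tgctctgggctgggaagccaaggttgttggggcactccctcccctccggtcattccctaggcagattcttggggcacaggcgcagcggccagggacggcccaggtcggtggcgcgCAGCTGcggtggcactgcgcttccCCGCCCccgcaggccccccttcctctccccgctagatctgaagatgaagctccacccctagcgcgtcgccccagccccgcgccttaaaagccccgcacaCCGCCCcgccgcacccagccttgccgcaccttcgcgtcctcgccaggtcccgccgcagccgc
Map2, chr9:75346440-75346739, plus strand: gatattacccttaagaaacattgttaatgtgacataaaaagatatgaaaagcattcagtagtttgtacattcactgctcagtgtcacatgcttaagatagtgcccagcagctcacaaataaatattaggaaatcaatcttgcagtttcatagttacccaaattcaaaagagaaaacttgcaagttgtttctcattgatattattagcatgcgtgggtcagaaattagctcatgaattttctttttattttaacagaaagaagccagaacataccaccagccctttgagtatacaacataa
Dcx, chrX:112304112-112304411, minus strand: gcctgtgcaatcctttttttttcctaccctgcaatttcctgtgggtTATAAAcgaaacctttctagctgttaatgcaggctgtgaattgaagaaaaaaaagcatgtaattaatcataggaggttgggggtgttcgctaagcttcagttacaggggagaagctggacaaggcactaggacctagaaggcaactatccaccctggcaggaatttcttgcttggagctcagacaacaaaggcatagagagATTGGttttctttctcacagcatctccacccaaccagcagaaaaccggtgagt
The windows differ in base composition. Those of Ina and Tubb3 had a GC content of 71.7% and 67.3% with 28 and 26 CpG dinucleotides, while those of Map2 and Dcx had 33.3% and 45% with 1 and 3. Across 33469 RefSeq windows of the same length the medians were 51.7% and 7. The GC box GGGCGG occurred in the windows of Ina and Tubb3, each with 2 matches, and in 33.1% of all windows. A CCAAT match lay in the windows of Tubb3 and Dcx and in 37.5% of all. The E-box CAGCTG was found for Ina (15.1% of all windows) and TATAAA for Dcx (14.2%). The E-box CAGATG, the AP-1 motif and the CRE motif, present in 16.6%, 7.33% and 1.83% of all windows, had no match in these 4, and the Map2 window held no match to any of the motifs. Such matches describe the letters only.

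Library totals ranged from 8409574 to 17206354 counts. The share of ribosomal RNA was between 3.04% and 43.0%, with the highest value in Control 1. The 10 genes together took 0.104% to 0.842% of the counts of a library. Single counts ranged from 4 for Nefh in Glutamate_secret 3 to 48887 for Mapt in Control 2, so that counting error weighs most on Nefh. All 18 neuron markers of a fixed list passed the filter. The astrocyte, microglia and oligodendrocyte lists passed in full as well, with Gfap, C1qa and Olig1 as their most abundant genes. Of 7 endothelial markers listed, 6 were analysed here and 1 passed (Pecam1), and of the fibroblast and mural list 4 of 8, led by Pdgfrb. The cultures thus held the neuronal and glial RNA that the label names. Memantine 3 stood apart from the other Memantine libraries in the genes studied here, and Control 1 in its ribosomal RNA share and its TMM factor of 0.417. The main comparisons with Memantine and Control are given with and without them.

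**Figure D1:**
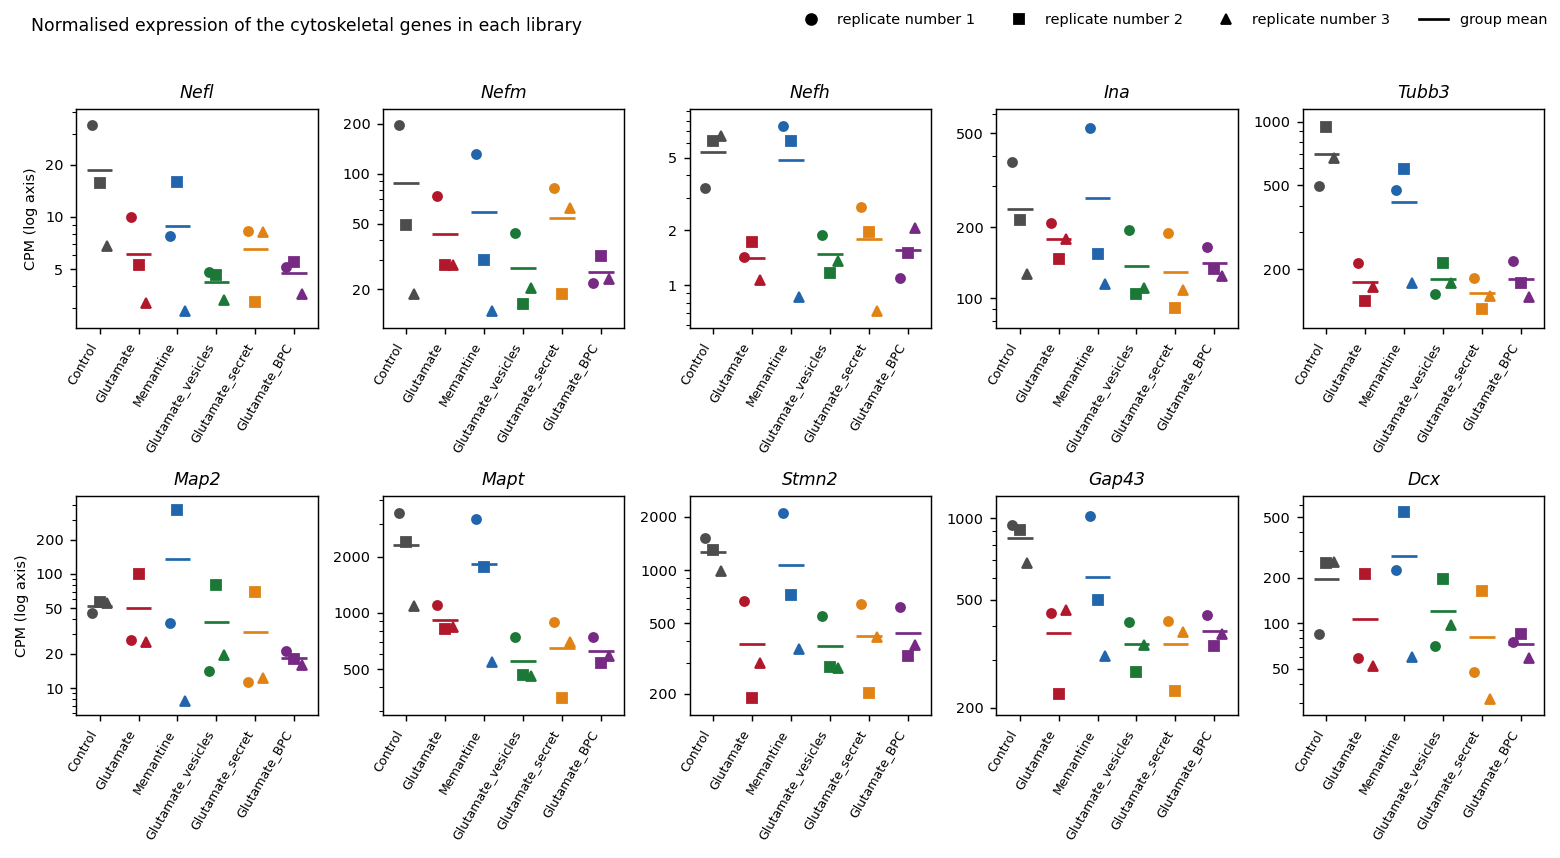
Expression of the 10 cytoskeletal genes in CPM on log axes, 1 panel per gene, with 1 point per library, the shape giving the replicate number and the bar the group mean of 3 libraries. The Control points of Tubb3, Stmn2, Gap43 and Nefh lie above all Glutamate points, Memantine 3 lies near the Glutamate libraries, and Map2 and Dcx are high in most libraries of number 2.

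Glutamate was set against Control to see what excess glutamate did to these RNAs. All 10 genes had a lower fitted mean in Glutamate, with a median log2 fold change of -1.25, against 0.08 over all genes tested, of which 44% were lower. Beta-III tubulin, the tubulin isotype of neurons, had the smallest p value. At an adjusted p below 0.05, however, edgeR's quasi-likelihood test called 0 of the 10 genes and 0% of all genes. At an unadjusted p below 0.05, 6 of the 10 were lower (Tubb3, Nefh, Stmn2, Gap43, Nefl and Mapt), compared with 5.97% of all genes. For 4 of the 10 every Glutamate library lay below every Control library, as it did for 7.76% of all genes. As unscaled shares of the library, Control 1 lay within the Glutamate range for Nefh, Tubb3 and Gap43. Their separation therefore depends on the TMM factors, that of Control 1 being 0.417. With edgeR's likelihood-ratio test 1 gene was called (0.313% of all genes) and with DESeq2 also 1 (1.67%), in both cases Tubb3. Without Control 1 the median was -1.0, and Nefm (0.35) and Ina (0.06) had a positive log2 fold change. Fewer of the 10 then had an unadjusted p below 0.05 than the 6 found with all libraries. Without Glutamate 2 the number at that threshold was 2 (1186 of all genes in either direction), and without Glutamate 3 it was 3 (729 of all genes).

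Tubb3 gave 493, 946 and 670 CPM in Control 1 to 3 and 214, 141 and 165 CPM in Glutamate 1 to 3. On the TMM scale every Control library was thus above every Glutamate library. The means were 703 ± 228 and 174 ± 37.2 CPM (SD, n = 3), a log2 fold change of -2.02 ± 0.43 (SE). Its adjusted p was 0.261 in the quasi-likelihood test of edgeR, 0.0187 in the likelihood-ratio test and 0.00101 in DESeq2. Within replicate numbers the log2 difference was -1.20, -2.74 and -2.02.

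Among the neurofilament genes, the heavy subunit differed most. Nefh was at 3.43, 6.18 and 6.62 CPM in Control and at 1.42, 1.71 and 1.07 CPM in Glutamate. The groups did not overlap on the TMM scale, with a log2 fold change of -1.95 ± 0.68 (edgeR adjusted p = 0.386). The Control 1 value of Nefh rested on 12 counts. Nefl, the light subunit, was at 33.7, 15.7 and 6.84 CPM in Control and at 9.94, 5.27 and 3.21 CPM in Glutamate. Its Control libraries spanned 4.93-fold, so that the groups overlapped although the difference was negative in each number, and the log2 fold change was -1.60 ± 0.66. Nefm, the medium subunit, gave -1.02 ± 0.85 and Ina -0.43 ± 0.54. For both, the Control 3 library lay below every Glutamate library (18.7 CPM for Nefm and 127 CPM for Ina), so that the sign in number 3 was opposite to that in numbers 1 and 2.

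Mapt and Map2, which encode microtubule-associated proteins of axon and dendrite, were not tested against each other. Mapt gave 3421, 2399 and 1094 CPM in Control and 1098, 819 and 835 CPM in Glutamate. Only Control 3 and Glutamate 1 overlapped, at nearly the same level, and the log2 fold change was -1.33 ± 0.58. Map2 was at 45.7, 56.7 and 56.0 CPM in Control, the tightest triplet for this gene, with a coefficient of variation of 11.7%. In Glutamate it was at 26.3, 99.4 and 25.3 CPM, with number 2 above and the other libraries below all Control libraries. The log2 fold change of -0.07 ± 1.04 therefore had a 95% interval from -2.29 to 2.15 in edgeR, and a difference of Map2 was not detectable in either direction. That interval includes the value of Mapt, and without Glutamate 2 the log2 fold change of Map2 was -1.03.

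Among the genes of growing axons, Stmn2 and Gap43 were lower without overlap and Dcx overlapped, and none passed the adjusted test. Stmn2 was at 1514, 1303 and 988 CPM in Control and at 667, 190 and 297 CPM in Glutamate, without overlap (log2 fold change -1.72 ± 0.65). For Gap43 the Control libraries gave 946, 902 and 684 CPM and the Glutamate libraries 446, 225 and 460 CPM. These did not overlap on the TMM scale either, and the log2 fold change was -1.16 ± 0.45. Dcx, at 84.8, 251 and 253 CPM in Control and 59.3, 211 and 52.0 CPM in Glutamate, overlapped and gave -0.87 ± 0.78. Of the 10 genes, 7 were lower within every replicate number, the exceptions being Nefm, Ina and Map2.

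The general neuron markers moved with the cytoskeletal genes. All 18 had a lower fitted mean in Glutamate (44% of all genes), with a median log2 fold change of -1.36. Of the 18, 10 had an unadjusted p below 0.05 in edgeR, against 5.97% of all genes in that direction. Their summed level was 4794, 2800 and 2076 CPM in Control and 1938, 838 and 1100 CPM in Glutamate. In RNA from whole cultures, fewer neurons and less RNA per neuron cannot be told apart. Astrocyte markers were higher in 10 of 11 cases (median 0.63) and microglia markers in 11 of 11 (median 1.04), against 56% of all genes. The astrocyte sum ranged from 4317 to 7589 CPM in Control and from 7124 to 13419 CPM in Glutamate, and that of microglia from 49.4 to 137 and from 115 to 430 CPM. Their part in the result was not tested.

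When the libraries were scaled to the 18 neuron markers in place of all genes, the median log2 fold change of the 10 genes in Glutamate against Control became 0.27. The same scaling moved the median of all genes from 0.08 to 1.58. On that scale Tubb3 gave -0.52 ± 0.53, Nefh -0.48 ± 0.70, Stmn2 -0.31 ± 0.62 and Nefl -0.17 ± 0.65, and these 4 kept a negative sign. The other 6 had a positive sign, with Map2 at 1.44 ± 0.95 and Ina at 1.08 ± 0.59 the highest. None of the 10 had an unadjusted p below 0.05 in edgeR on this scale, where 38.3% of all genes did.

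The summed CPM of the 10 genes per summed CPM of the neuron markers differed more by replicate number than by treatment. It was 1.48, 2.19 and 1.88 in Control 1 to 3 and 1.45, 2.23 and 1.86 in Glutamate 1 to 3, so that equal numbers gave nearly equal ratios while both sums were lower in Glutamate. In number 1 the ratio lay between 1.31 and 1.48 over all 6 groups, in number 2 between 1.60 and 2.23, and in number 3 between 1.28 and 1.88. Over all 18 libraries the mean log2 CPM of the 10 genes and of the neuron markers had a Pearson r of 0.968, and within the numbers r was 0.962, 0.988 and 0.931 over 6 libraries each. The points share their libraries and scaling, and both sums are carried by their most abundant genes, Mapt, Stmn2, Gap43 and Uchl1.

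**Figure D2:**
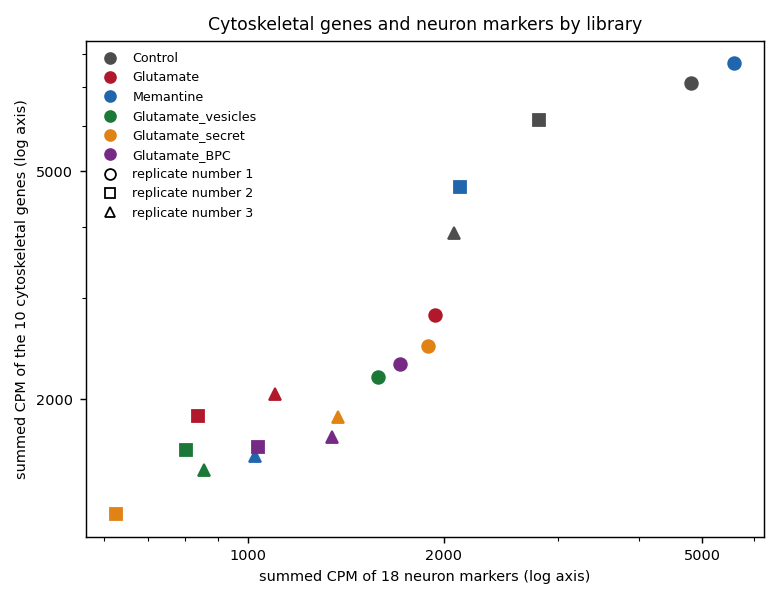
Summed CPM of the 10 cytoskeletal genes against summed CPM of 18 neuron markers, both on log axes, with 1 point per library, the colour giving the group and the shape the replicate number. The 3 Control libraries with Memantine 1 and 2 lie at the upper right, and the remaining 13 libraries, Memantine 3 included, lie below 2803 CPM on the vertical axis.

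The Memantine group served to see how these RNAs fared when the receptor was blocked. In it, all 10 genes had a higher fitted mean than in Glutamate, with a median log2 fold change of 1.12 against -0.02 over all genes, of which 48.4% were higher. Of the 10, edgeR called 0 with its quasi-likelihood test (0% of all genes) and 0 with its likelihood-ratio test (0%), and DESeq2 called 0 (0.0161%). At an unadjusted p below 0.05, 3 were higher (Tubb3, Nefh and Stmn2), compared with 4.88% of all genes. None of the 10 had all Memantine libraries above all Glutamate libraries, as 1.74% of all genes did.

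Memantine 3 lay apart from the other Memantine libraries. Tubb3 was at 475, 598 and 172 CPM in Memantine 1 to 3, the last of which lay among the Glutamate libraries (log2 fold change 1.26 ± 0.42). Stmn2 gave 2117, 728 and 361 CPM (1.47 ± 0.65), and its first Memantine library exceeded every Control library. Nefh gave 7.52, 6.17 and 0.862 CPM (1.78 ± 0.67), and Mapt 3158, 1749 and 546 CPM (0.99 ± 0.58). For Gap43 the values were 1019, 499 and 310 CPM, and the log2 fold change was 0.69 ± 0.44. In Memantine 1 and 2 these 5 genes were above their highest Glutamate library, and in Memantine 3 each of them but Tubb3 and Stmn2 was below the Glutamate 3 library.

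The dispersion was wider still for Map2 and Dcx. Map2 was at 37.0, 362 and 7.76 CPM in Memantine 1 to 3, its highest and lowest values of the whole series, 46.6-fold apart. Dcx followed with 223, 545 and 60 CPM. Their log2 fold changes of 1.43 ± 1.06 and 1.36 ± 0.79 had 95% intervals that included 0 in edgeR. Nefl (7.73, 15.9 and 2.87 CPM) gave 0.53 ± 0.65, Ina (528, 154 and 115 CPM) gave 0.58 ± 0.54, and Nefm (132, 30.1 and 14.7 CPM) gave 0.45 ± 0.85, and all 3 had their lowest Memantine value in library 3.

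Within replicate numbers the median log2 difference of the 10 genes between Memantine and Glutamate was 1.27 in number 1, 1.47 in number 2 and -0.42 in number 3, where 7 of the 10 were lower. Without Memantine 3 the median of the fitted changes was 1.52, 6 genes had an unadjusted p below 0.05 (1977 of all genes), and edgeR called 1 (254 of all genes), Tubb3, at 1.62 ± 0.36 (adjusted p = 0.0368). Without Memantine 1 the median was 0.56. The count at an unadjusted p below 0.05 was 1 without Memantine 1, without Memantine 2 or without Glutamate 3 (470, 585 and 416 of all genes). It was 0 when only the libraries of both groups entered the fit (202 of all genes). The neuron marker sum was 5583, 2117 and 1025 CPM in Memantine 1 to 3, and the microglia sum 38.2, 48.1 and 523 CPM, so that library 3 differed in these cell types as well, and their part in the result was not tested. All 18 neuron markers were higher than in Glutamate (48.4% of all genes) with a median of 1.36. On the neuron marker scale the median of the 10 genes was -0.42, that of all genes -0.75, and none of the 10 had an unadjusted p below 0.05 in edgeR, where 1.85% of all genes did.

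Against Control, Memantine left 7 of the 10 genes lower and 3 higher (Map2, Dcx and Ina), with a median of -0.29, where 40.1% of all genes were lower. The count called was 0 in both tests of edgeR and in DESeq2 (0% of all genes in each), and 0 had an unadjusted p below 0.05 (1.12% of all genes). The log2 fold changes ran from -1.07 ± 0.65 for Nefl to 1.36 ± 1.06 for Map2. In number 3 all 10 were lower in Memantine. Leaving out Memantine 3 turned the sign of the median, which was then 0.14. The median was -0.92 without Memantine 1 and -0.023 without Control 1.

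**Figure D3:**
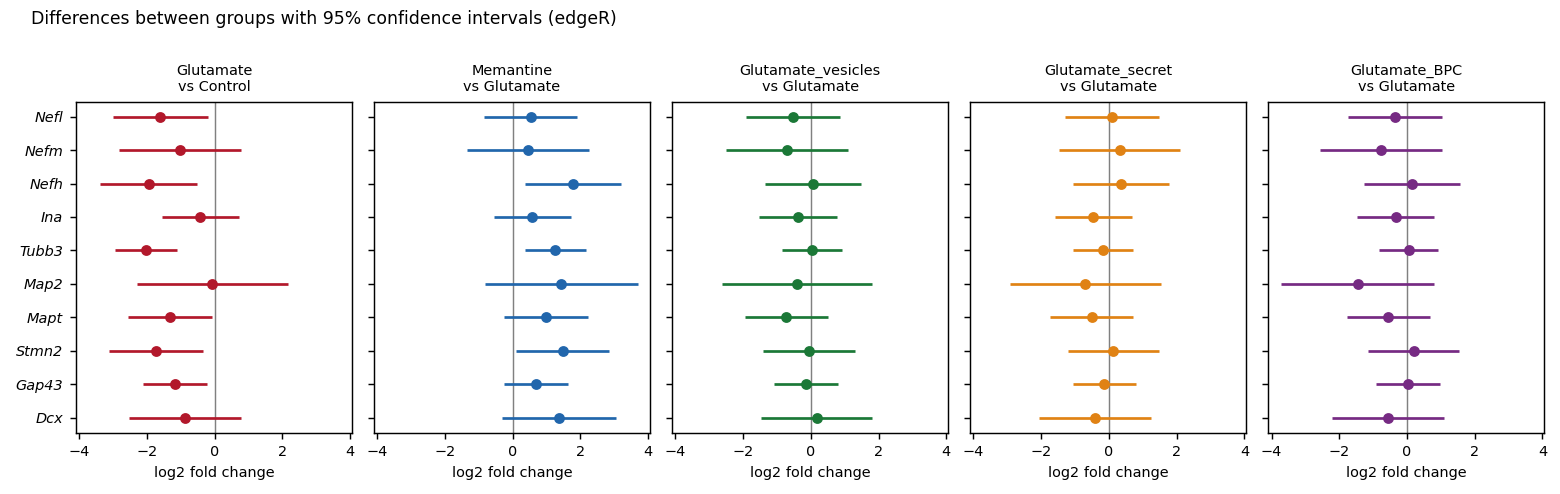
Log2 fold changes of the 10 genes from edgeR in 5 comparisons, with points for the estimate and lines for the 95% confidence interval. Intervals of 6 genes lie below 0 for Glutamate against Control and of 3 genes above 0 for Memantine against Glutamate, and every interval for the 3 progenitor preparations against Glutamate includes 0.

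The preparations from glial progenitor cells were compared with Glutamate to ask whether they kept these RNAs closer to Control. No shift toward Control was detected. With vesicles the 10 genes had a median log2 fold change of -0.26 and 7 were lower (51.3% of all genes). In Glutamate_secret the median was -0.16 with 6 lower (51%), and in Glutamate_BPC -0.35 with 6 lower (54.7%). The medians over all genes were -0.01, -0.01 and -0.05. In each comparison edgeR's quasi-likelihood test called 0 of the 10 (0% of all genes each), and 0 had an unadjusted p below 0.05, where 1.08%, 0.681% and 1.07% of all genes did. Its likelihood-ratio test also called 0 of the 10 (0.0139%, 0% and 0% of all genes), as did DESeq2 (0.0209%, 0% and 0.00696%).

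Tubb3 is the most precise of the set here. It was at 152, 215 and 171 CPM in Glutamate_vesicles, 182, 129 and 149 CPM in Glutamate_secret and 217, 172 and 147 CPM in Glutamate_BPC. These 9 libraries covered 129 to 217 CPM, close to the 141 to 214 CPM of Glutamate, and all were below the lowest Control value. That value is of Control 1, whose TMM factor was 0.417. As an unscaled share of the library, Control 1 lay within the range of these 9 libraries. The log2 fold changes against Glutamate were 0.05, -0.18 and 0.04. Their 95% intervals in edgeR were -0.84 to 0.93, -1.06 to 0.70 and -0.84 to 0.93, so that a return of the log2 difference of 2.02 seen between Control and Glutamate lay outside each of them.

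Mapt was lower with 2 of the preparations in the sense that no library overlapped with Glutamate. It was at 740, 463 and 461 CPM in Glutamate_vesicles (log2 fold change -0.73 ± 0.58) and at 746, 540 and 590 CPM in Glutamate_BPC (-0.55 ± 0.58), with all Glutamate libraries at 819 CPM or more. In Glutamate_secret, with 891, 352 and 697 CPM, the ranges met and the change was -0.50 ± 0.58. Map2 was at 21.0, 18 and 15.9 CPM in Glutamate_BPC, below all Glutamate and Control libraries (-1.46 ± 1.07 against Glutamate), and lacked the high value of number 2 seen in Glutamate_vesicles (14.2, 80.5 and 19.3 CPM) and Glutamate_secret (11.2, 69.3 and 12.1 CPM). None of these differences passed the test. Ranges separated in the lower direction for 1, 0 and 2 of the 10 genes in the 3 comparisons, and for 3.38%, 2.01% and 4.24% of all genes.

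The growth-related genes gave small differences from Glutamate. Stmn2 was at 548, 284 and 282 CPM with vesicles, at 648, 202 and 417 CPM in Glutamate_secret and 617, 329 and 379 CPM in Glutamate_BPC, all below the lowest Control value, with log2 fold changes of -0.05, 0.13 and 0.20. Gap43 was between 231 and 440 CPM in these 9 libraries, and its log2 fold changes were -0.14, -0.13 and 0.02. For Dcx they were 0.17, -0.40 and -0.56. For the neurofilament genes they lay between -0.76 (Nefm in Glutamate_BPC) and 0.35 (Nefh in Glutamate_secret). Neuron markers had medians of -0.16, -0.33 and 0.13.

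Set against Control in place of Glutamate, all 10 genes had lower fitted means with each preparation, and the medians were -1.74, -1.40 and -1.66 for vesicles, Glutamate_secret and Glutamate_BPC. Of all genes, 47.8%, 46.5% and 53% were lower. These comparisons use the same Control libraries as that of Glutamate and are no independent repeats of it. Calls by edgeR's quasi-likelihood test were 0 of the 10 in each (0.0139%, 0% and 0% of all genes). At an unadjusted p below 0.05, 6 were lower in each, against 7.61%, 7.61% and 7.42% of all genes. On the TMM scale ranges were separate for 6, 5 and 8 of the 10, against 9.83%, 9.07% and 12.7% of all genes. The likelihood-ratio test called 1 in each, Tubb3, where it called 1.11%, 1.55% and 0.424% of all genes. DESeq2 called 3, 2 and 2, where it called 3.39%, 3.08% and 1.78% of all genes. Without Control 1 the medians were -1.31, -1.32 and -1.43. Fewer of the 10 then had an unadjusted p below 0.05 in Glutamate_secret and Glutamate_BPC. Nefm moved most, from -1.72 to -0.34 with vesicles, from -0.71 to 0.67 in Glutamate_secret and from -1.78 to -0.41 in Glutamate_BPC.

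Tubb3 had log2 fold changes against Control of -1.97 ± 0.43, -2.20 ± 0.43 and -1.97 ± 0.43, with edgeR adjusted p of 0.161, 0.126 and 0.295. Mapt was at -2.05 ± 0.60, -1.83 ± 0.59 and -1.88 ± 0.59, and in all 3 groups its libraries lay below the lowest Control value of 1094 CPM. For Nefl the changes were -2.13 ± 0.67, -1.51 ± 0.66 and -1.96 ± 0.67. On the TMM scale Dcx and Map2 separated from Control in Glutamate_BPC and in neither of the other groups. For Dcx the gap lay between 84.6 CPM in Glutamate_BPC 2 and 84.8 CPM in Control 1. As an unscaled share of the library, Control 1 lay below every Glutamate_BPC library for Dcx and within their range for Map2. The separation of these genes therefore depends on the TMM factors. In the comparison of Glutamate_vesicles with Control, same-numbered libraries deviated together, and a fit with the replicate number as a block called 3 of the 10 (3.74% of all genes), namely Tubb3 (-1.97, adjusted p = 0.0245 in edgeR), Mapt (-1.99, 0.0310) and Stmn2 (-1.88, 0.0287).

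Between the preparations and Memantine, all 10 fitted means were lower in each preparation, with medians of -1.20, -1.38 and -1.24, where 54.1%, 50.8% and 55.1% of all genes were lower. Here edgeR's quasi-likelihood test called 0 in each (0% of all genes), and 4, 4 and 5 had an unadjusted p below 0.05, against 5.97%, 7.55% and 7.24% of all genes in that direction. Same-numbered libraries deviated together in all 3 comparisons. With the replicate number as a block, the count at that threshold for Glutamate_secret was 8, against 21.2% of all genes in either direction. No gene had all libraries of a preparation below all Memantine libraries (2.33%, 2.8% and 2.43% of all genes). The likelihood-ratio test called 0 in each (0.0764%, 0.57% and 0.0347%), and DESeq2 called 0, 1 (Tubb3) and 0 (0.577%, 1.34% and 0.094%). In number 3 the sign turned for most genes, with medians of 0.16, 0.25 and 0.19 over the 10 within that number, against -1.62, -1.46 and -1.63 in number 1. Without Memantine 3 the edgeR counts were 2, 1 and 1 called (357, 673 and 399 of all genes). At an unadjusted p below 0.05 they were 9, 8 and 8, where 2371, 2923 and 2990 of all genes in either direction were. Without Memantine 1 the latter were 1, 2 and 3 (584, 826 and 884 of all genes). Without Memantine 2 the count for Glutamate_BPC was 1 (511 of all genes). With only the groups compared they were 1, 1 and 2 (435, 352 and 577 of all genes).

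A single test over all 6 groups called 0 of the 10 genes (F test of edgeR, 0.00695% of all genes), 6 of the 10 had an unadjusted p below 0.05 (7.75% of all genes), and Tubb3 came closest with an adjusted p of 0.10. Without Memantine 3 it called 3 of the 10 and 500 of all genes. The likelihood-ratio tests of edgeR and DESeq2 called 3 each, and 587 and 717 of all genes.

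The replicate number was a large source of variation for several of the genes. Of the 10, 6 differed between the 3 numbers at an adjusted p below 0.05 when treatment was in the model (F test of edgeR), and so did 60.4% of all genes. These were Map2, Dcx, Ina, Stmn2, Nefm and Mapt. They did not move the same way. From number 1 to number 2, Map2 was higher by a log2 fold change of 1.98 and Dcx by 1.36, while Nefm had -1.51, Stmn2 -1.18, Ina -0.92 and Mapt -0.70. Over the 6 groups, the median of Map2 was 23.7 CPM in number 1, 74.9 in number 2 and 17.6 in number 3, and that of Nefm 77.6, 29.0 and 21.8. The ribosomal RNA share also differed by number, being 13.4% to 43.0% in number 1 3.04% to 8.15% in number 2 and 6.58% to 26.6% in number 3, and with its log2 value in the model the calls of the same test went from 6 to 0 of the 10 and from 8694 to 68 of all genes, so that the 0 is not particular to the 10. The study's supplement mentions a day covariate that was removed before clustering, and nothing ties the replicate numbers to those days.

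As shares of the total sum of squares of log2 CPM, treatment accounted for a median of 48.2% and number for 27.1% over the 10 genes, and for 22.4% and 42.2% over all genes tested. Tubb3 stood at 79.4% for treatment and 4.10% for number. Mapt (59.8% and 20.2%), Gap43 (58.1% and 19.2%), Stmn2 (54.3% and 31.3%), Nefh (52.5% and 9.15%) and Nefl (43.9% and 23.0%) had more of their variation between treatments. For Ina (26.6% and 50.3%), Nefm (17.5% and 45.8%), Map2 (18.6% and 45.4%) and Dcx (33.3% and 40.8%) the number held the larger share.

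**Figure D4:**
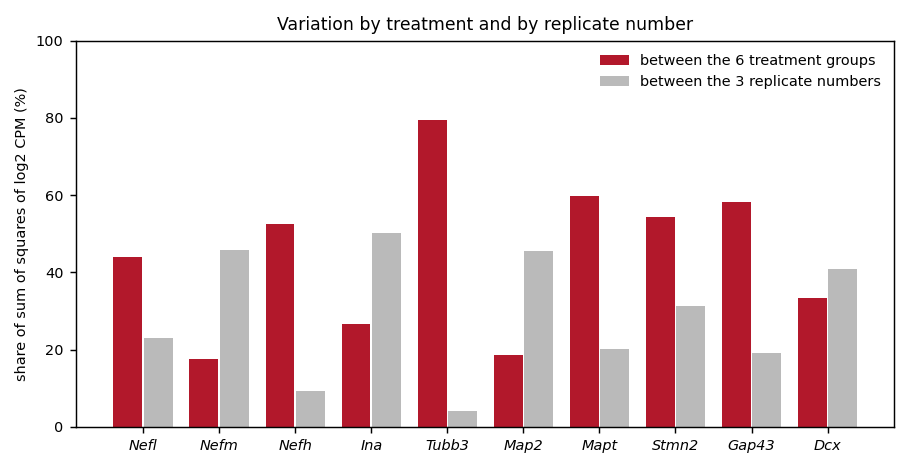
Share of the sum of squares of log2 CPM over 18 libraries, in percent, that lies between the 6 treatment groups (red) and between the 3 replicate numbers (grey) for each gene. Tubb3 has the highest share for treatment (79.4%) and the lowest for number (4.10%), and for Nefm, Ina, Map2 and Dcx the grey bar is the taller.

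The genes fell into profiles that crossed their roles. Over the 18 libraries, Stmn2 and Gap43 were the closest pair (Pearson r = 0.952), followed by Mapt with Gap43 (0.898), Mapt with Stmn2 (0.888) and Map2 with Dcx (0.880). Nefm was most like Ina (0.831), and Ina in turn was most like Mapt (0.867). Nefl was closest to Mapt (0.830). Tubb3 and Nefh were each other's nearest gene by Pearson r (0.834). By ranks their likeness was weaker, with a Spearman correlation of 0.496, against 0.905 for Stmn2 with Gap43 and 0.802 for Map2 with Dcx. Map2 and Dcx differed from several axonal genes, with r of -0.16 for Dcx with Nefm, -0.07 for Map2 with Nefm, 0.05 for Map2 with Ina and 0.10 for Map2 with Stmn2, although Dcx reached 0.71 with Nefh and 0.64 with Tubb3. The light and heavy neurofilament subunits had an r of 0.57, and the medium and heavy ones 0.36. These values describe libraries that share treatment and number, and the low counts of Nefh limit its values.

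**Figure D5:**
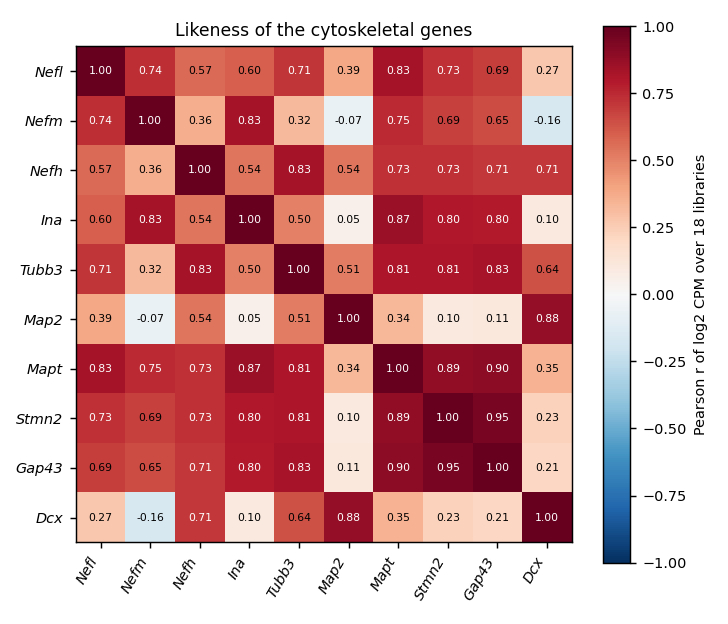
Pearson r between the log2 CPM of each pair of the 10 genes over 18 libraries, from -1 (blue) to 1 (red). Stmn2 and Gap43 are the closest pair at 0.95, and Map2 and Dcx are close to each other (0.88) but not to Nefm, Ina, Stmn2 or Gap43.

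Outside the 10, the genes most like their mean profile were Pnma8c (r = 0.983), Orai2 (0.972), Fam131b (0.969), Spock2 (0.967) and Slco3a1 (0.963), found among 11870 genes whose mean log2 CPM was 1 or more. Orai2 encodes a calcium channel subunit and Spock2 a secreted proteoglycan. Spock2 had group means of 267 CPM in Control, 70.6 in Glutamate and 227 in Memantine, and between 53.7 and 70.5 in the preparations. Orai2 had 39.4, 8.77 and 27.7 CPM in the first 3 groups and 6.77 to 9.23 in the others. Both thus had the order of Control, then Memantine, then the rest, which follows from their selection by likeness to the 10 in these same libraries.

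Other genes of the cytoskeleton were read from lists of related genes. In Glutamate against Control, the quasi-likelihood test of edgeR called none of them in any list. DESeq2 called 1 other intermediate filament, 1 motor gene and 4 genes of axon growth and membrane, beside 1.67% of all genes. An unadjusted p below 0.05 was reached by 5.97% of all genes in the lower direction and by 2.13% in the higher one. Of 11 tubulins tested, 5 were higher and 6 lower (median -0.11). Tubb6, a widely expressed isotype, had a mean of 228 CPM against 75.0 in Control (log2 fold change 1.60 ± 0.51), in the opposite direction to Tubb3, and Tubb2b, abundant in young neurons, had -0.89 ± 0.38. Of 24 other microtubule-associated genes 19 were lower (median -0.56), 5 of them at an unadjusted p below 0.05. The 2 with the smallest p were Crmp1 (-1.52 ± 0.47) and Dpysl5 (-1.70 ± 0.58), both of the collapsin response mediator family that acts in axon guidance.

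The other intermediate filaments went the other way, with 6 of 8 higher and a median of 0.57. Nes, which encodes nestin of progenitors and reactive glia, was at 851 CPM in Glutamate and 329 in Control, 2.59-fold higher, with an SE of 0.37 on the log2 scale and an adjusted p of 0.282 in edgeR and 0.000920 in DESeq2. Lmna, of the nuclear lamina, gave 1.25 ± 0.56. Gfap stands in this list and in that of astrocytes.

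Transport and membrane genes of the axon were lower in most cases. Of 18 genes of axonal motors 15 were lower (median -0.67), led by the dynein subunit Dync1i1 (-1.98 ± 0.55) and the kinesin Kif5a (-1.62 ± 0.57), and DESeq2 called Dync1i1 (adjusted p = 0.0377). In the list of the axon initial segment and spectrin skeleton 12 of 13 were lower (median -0.91), among them Dmtn (-2.27 ± 0.72), an actin-binding protein of the spectrin skeleton. Of 14 genes of axon growth and membrane 13 were lower (median -1.11), 6 of them at an unadjusted p below 0.05. Nsg1, an endosomal protein of neurons, gave -1.69 ± 0.46 and Tagln3, a neuronal relative of transgelin, gave -1.42 ± 0.39 (DESeq2 adjusted p = 0.0221 and 0.0224). Among 14 genes that modify or cut tubulin 10 were lower (median -0.31), led by the carboxypeptidase Agtpbp1 (-1.58 ± 0.59) and the vasohibin Vash2 (-1.07 ± 0.48).

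With memantine the same lists had medians of the opposite sign to those of Glutamate against Control, from 1.28 for the initial segment list to 0.29 for the tubulins and -0.18 for the other intermediate filaments. Both comparisons use the Glutamate libraries, so that opposite signs are not independent. Memantine 3 did not share the rise, with a mean log2 CPM of 4.39 for the initial segment list, below all Glutamate libraries (4.69 to 5.63). It was also below them for the motors and the other microtubule-associated genes, and within their range for the remaining lists. Dpysl5 had 2.08 ± 0.59, Agtpbp1 2.02 ± 0.60 and Kif5a 1.93 ± 0.58 in Memantine against Glutamate, and none was called by edgeR or DESeq2. Across the 3 preparations against Glutamate, the genes of these lists named here lay between -0.76 (Dmtn in Glutamate_secret) and 0.64 (Tubb6 in Glutamate_vesicles), and none had an unadjusted p below 0.05.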

How the data were processed

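RNA-seq was analysed in 18 libraries of 6 groups with 3 libraries each. The deposited files hold estimated counts per gene, which the authors made with Salmon against Ensembl rn6 transcripts after trimming with Trimmomatic and Cutadapt and summed with tximport. The processing notes of the submitters also list STAR. The platform and library kit differ between the paper and the labels. The counts were rounded to whole numbers, and genes were kept with filterByExpr (count minimum 10, total 15), which left 14398 of 31463 rows. Tests used edgeR 4.0.16 in R 4.3.3, with TMM scaling, 1 mean per group over all 18 libraries, the quasi-likelihood F test and Benjamini-Hochberg adjustment over all genes tested at 0.05. The alternatives included edgeR's likelihood-ratio test (glmLRT), which the study's methods name, and DESeq2 1.42.0. Log2 CPM used a prior count of 2, intervals are 95%, and SEs follow from the fold change and F. Other alternatives were size factors of DESeq2, scaling to neuron markers, no filter, ribosomal RNA rows left out or as a covariate, the replicate number as a block, only the groups compared, and each library left out. Same-numbered libraries were taken as paired where all 3 correlations of their deviations from group means exceeded 0.1, which held for 7 of 12 comparisons, among them vesicles against Control. All comparisons draw on the same 6 groups and share libraries. Totals of 8409574 to 17206354 counts leave counting error small next to the spread between libraries, except for Nefh. The 10 genes and all lists were chosen with earlier results of these data known. From each list of related genes the 2 with the lowest p for Glutamate versus Control are named, except 1 that is not reported here. The genes most like the 10 were ranked by Pearson r with their mean profile. The quasi-likelihood test was checked on simulated counts with the same dispersion for every gene and no effect of replicate number. That check therefore does not cover the spread between libraries seen here.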

Additional observations from a re-analysis of the deposited data

How the results depend on the processing

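Of 975 values of the 10 genes under alternatives, drawn from 65 reported fold changes, 892 kept their direction and their side of the test's threshold, 27 passed it where the value first reported did not, and 56 changed sign. The number of the 10 called depended on the test. With the likelihood-ratio test of edgeR it was 1 in Glutamate against Control and 1 in each preparation against Control, and 3 for any difference among the groups. With DESeq2 it was 1 in Glutamate, 3 in Glutamate_vesicles, 2 in Glutamate_secret and 2 in Glutamate_BPC against Control, 1 in Glutamate_secret against Memantine and 3 among the groups. With the replicate block it was 2 in Glutamate, 3 in Glutamate_vesicles, 4 in Glutamate_secret and 1 in Glutamate_BPC against Control (1.15%, 3.74%, 4.86% and 1.74% of all genes), and 3 among the groups (497 of all genes). Of these comparisons with Control only that of vesicles met the criterion of pairing, since in Glutamate against Control the correlations were 0.591, 0.571 and -0.117, and in no other paired comparison did the block change a call of the 10. With the ribosomal RNA share as a covariate it was 1 in Glutamate_vesicles and 3 in Glutamate_secret against Control (57 and 581 of all genes). With the same covariate it was 2 among the groups (385 of all genes) and 0 for the replicate numbers (68 of all genes). For the replicate numbers neuron scaling gave 3 (9470 of all genes). Leaving out each library gave 0 to 1 in Memantine against Glutamate and in Glutamate_secret and Glutamate_BPC against Memantine, 0 to 2 in Glutamate_vesicles against Memantine and 0 to 3 among the groups, the upper value without Memantine 3 in each case. The cause of these differences was not tested.

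Most changes of sign came from scaling to neuron markers, which by construction takes the shared level of neuronal RNA out of each library. On that scale the log2 fold changes that turned were, in Glutamate against Control, Nefm 0.40, Ina 1.08, Map2 1.44, Mapt 0.18, Dcx 0.63 and Gap43 0.36. In Memantine against Glutamate they were Nefl -0.79, Nefm -0.99, Ina -0.71, Tubb3 -0.034, Map2 -0.39, Mapt -0.46, Dcx -0.22 and Gap43 -0.53. Against Control they were Ina 0.79, Map2 1.08, Dcx 0.89 and Gap43 0.32 in Glutamate_vesicles, Nefl 0.28, Nefm 1.02, Nefh 0.10, Ina 0.85, Map2 1.18, Stmn2 0.12, Dcx 0.62 and Gap43 0.49 in Glutamate_secret, and Ina 0.63 and Gap43 0.25 in Glutamate_BPC. Against Memantine they were Map2 0.025 and Gap43 0.50 in Glutamate_vesicles, Nefm 1.61 and Map2 0.12 in Glutamate_secret, and Gap43 0.42 in Glutamate_BPC. Nefm in Glutamate_secret against Memantine also turned with the replicate block (0.26), and Dcx in Glutamate_vesicles against Glutamate with the ribosomal RNA covariate (-0.36).

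Leaving out 1 library turned further values, given as their range. In Glutamate against Control these were Nefm (-1.64 to 0.35), Ina (-0.73 to 0.059) and Map2 (-1.03 to 0.26). In Memantine against Glutamate they were Nefl (-0.21 to 1.06), Nefm (-0.95 to 1.07), Ina (-0.40 to 0.94) and Map2 (-1.18 to 2.39). Against Glutamate they were Dcx in Glutamate_vesicles (-0.35 to 1.12), Nefh (-0.018 to 0.71) and Map2 (-2.12 to 0.27) in Glutamate_secret, and Stmn2 in Glutamate_BPC (-0.13 to 0.86). Against Control they were Map2 in Memantine (-1.24 to 1.93) and Nefm in Glutamate_secret (-1.18 to 0.67). Against Memantine they were Map2 in Glutamate_vesicles (-3.01 to 0.77), and Nefm (-0.58 to 1.26) and Map2 (-3.54 to 0.48) in Glutamate_secret. With 3 libraries a group and this spread, Map2, Nefm and Dcx had the largest standard errors in Glutamate against Control (1.04, 0.85 and 0.78).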

Other observations

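In Glutamate_secret 3, the library with the smallest share of counts from the 10 genes (0.104%), the microglia marker sum was 827 CPM, the highest of all libraries, and the ratio of the 10 genes to the neuron markers was 1.36. That share is not TMM-scaled. On the CPM scale its 10 genes summed to 1866 CPM, not the lowest value, since Glutamate_secret 2 had 1262 CPM. Glutamate_vesicles 3 had the lowest astrocyte marker sum of all libraries at 4135 CPM, while its 10 genes summed to 1507 CPM, within the range of the other libraries given glutamate.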
